A study of Mus musculus with 32 samples.

Results

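The radiation response of P72 thymocytes was set against that of R72 thymocytes at 4 h by the difference of responses, the change between 4 h and 0 h in P72 minus the same change in R72. It drew on 16 of the 32 arrays of the series, 4 in each of the groups P72 4 h, P72 0 h, R72 4 h and R72 0 h. The names stand for the residue that codon 72 of p53 encodes, proline in P72 mice and arginine in R72 mice, and the labels do not describe how the alleles were made. All were C57Bl/6 mice aged 6 weeks, the 4 h groups were killed 4 h after 5 Gy of gamma radiation from a caesium source, and the 0 h groups were untreated. Thymocytes of 2 mice of a genotype were pooled for each array, and the 4 arrays of a group were independent experiments per the labels. The difference of responses leaves out any gap between the genotypes that was the same before and after irradiation.

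p53 is a transcription factor that DNA breaks stabilise. In thymocytes, which die readily after irradiation, it switches on genes of apoptosis such as Bbc3 and Pmaip1 and of cell cycle arrest such as Cdkn1a. NF-kB is a second transcription factor that answers to DNA breaks and to inflammatory signals and drives genes of cytokines, chemokines and survival proteins. Codon 72 lies in the proline-rich region of human p53, and the study asks whether its variants differ in how p53 works with NF-kB on immune and inflammatory genes.

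A level here is the log2 of a probe's signal after division by its array's 75th percentile. Responses and differences are in the same log2 units, with ± giving the standard error (SE) from limma. The 75th percentile of signal lay between 268.3 and 725.9 fluorescence units on the 16 arrays. Between 58.3% and 69.1% of probes stood well above background, and precision is set by how many arrays there are. P72 0 h replicate 1 stood apart: the genes that rose at least 2-fold lay at a median of -1.11 there, relative to their mean over the 16 arrays, and between -0.80 and -0.74 on the other P72 0 h arrays. The transcript Xist ran from -7.91 to -3.70 on replicates 1 and 3 and from 5.12 to 5.87 on replicates 2 and 4 of both genotypes, although the labels give every pool 1 male and 1 female. R72 2 h replicate 4 also stood apart, with an array weight of 0.231, and entered only the spread and the 2 h values. Because the samples are bulk RNA, fewer cells of a type and less RNA per cell cannot be told apart.

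No gene had a difference of responses past an adjusted p of 0.05 (limma, Benjamini-Hochberg over 20536 genes, 0% called), and the smallest adjusted p = 0.335. Without adjustment 1165 genes had p under 0.05, of which 916 (4.46% of those tested) had a larger value in P72 and 249 (1.21%) a smaller one. With each array centred on its median instead, 462 were positive and 592 negative, with the median difference of all genes at -0.12, against 0.01 at the scaling used here. Quantile normalization gave 728 positive and 479 negative, and values from the authors' deposited table gave 683 positive and 420 negative. Across genes, which are not independent replicates, the responses of P72 and R72 had a correlation of 0.926. At the median, the 95% interval of a gene's difference reached 0.49 to either side of the estimate. For 13939 genes (67.9%) the interval lay within 2-fold either way, and for 8809 (42.9%) within 1.5-fold. For the remaining genes a difference past 1.5-fold lies within the interval.

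**Figure D1:**
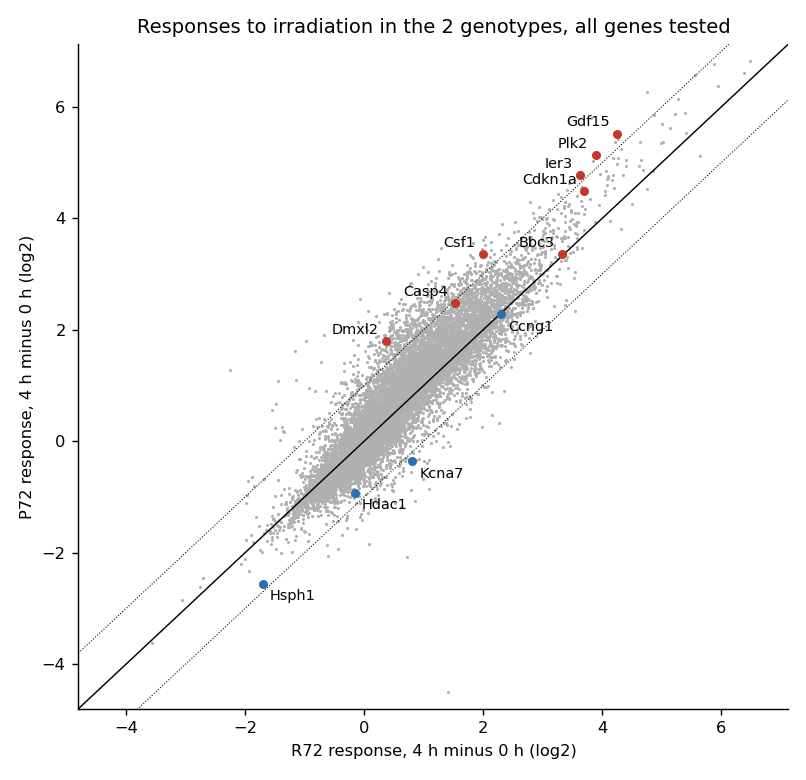
Response of each of 20536 genes in P72 (vertical axis) against that in R72 (horizontal axis), both as log2 of 4 h minus 0 h; the solid line marks equal responses and the dotted lines a 2-fold difference. Points of rising genes lie more often above the solid line, while Bbc3 (3.35 in P72 and 3.32 in R72) and Ccng1 (2.28 and 2.31) lie on it; named genes are red where P72 was higher and blue where it was lower.

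Although no single gene passed, the estimated response was larger in P72 for most genes that responded. Genes were sorted by the mean response of both genotypes, which with 4 arrays in every group is estimated independently of the difference. By that mean 8371 genes rose (40.8%) and 4787 fell (23.3%, limma, adjusted p under 0.05). Among those that rose, the difference of responses was positive for 6257 (74.7%) with a median of 0.19, beside 52.7% and 0.01 over all genes tested. Of the 4488 that rose at least 2-fold, 77.1% had a positive difference, and their median response was 1.84 in P72 (3.58-fold) and 1.501 in R72 (2.83-fold). Of those that fell, 75.6% had a negative difference with a median of -0.08, so the estimated fall was also the larger one in P72. The 7378 genes that did neither had a median of -0.02. Counted separately, 7525 genes rose (36.6%) and 4010 fell (19.5%) in P72, and 6097 rose (29.7%) and 3015 fell (14.7%) in R72.

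The gap in amplitude was modest beside the spread between arrays. Relative to their mean over the 16 arrays, genes that rose at least 2-fold stood at 0.99 ± 0.34 (SD, n = 4) on the P72 4 h arrays and at -0.85 ± 0.17 on the P72 0 h arrays, against 0.71 ± 0.27 on the R72 4 h arrays and -0.81 ± 0.14 on the R72 0 h arrays. The 4 h arrays of the genotypes overlapped, from 0.49 to 1.29 in P72 and from 0.46 to 1.09 in R72. The median difference was 0.34 in the 1496 dimmest of these genes, 0.29 in the 1496 of middle level and 0.31 in the 1496 brightest, where 85% were positive. Over all genes that rose it was 0.16 on the arrays of scan day 1 (replicates 1 and 2) and 0.29 on those of scan days 2 and 3 (replicates 3 and 4). In the later batch all P72 arrays were scanned on day 2 and all R72 arrays but 1 on day 3, so there scan day and genotype can hardly be separated. Slide was tied to genotype in both batches: slides 1 and 3 held only P72 arrays, slides 5 and 6 only R72 arrays, and slides 2 and 4 both. With the slide as a fixed block the median over genes that rose was 0.11. In that fit 873 genes had an unadjusted p under 0.05, 587 of them positive. The median was 0.23 in replicates 1 and 3 (low Xist), 0.24 in replicates 2 and 4 (high Xist), and 0.15 without P72 0 h replicate 1. In each of these fits the genes that rose were chosen anew, so the medians are not over the same genes. They were 7027 and 7048 genes for the scan days, 6055 and 6461 for the replicate pairs and 8100 without that array, against 8371. Single lists differed more between these pairs of replicates, as given below. Under every scaling tried, 70.1% to 76.5% of genes that rose lay above the median difference of all genes.

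Because members of the NF-kB target list were among the genes with the largest differences, the promoters of Ier3, Csf1, Cxcl10 and Casp4 are shown, with that of Nfkbia, a member whose difference was small. They are examples and do not stand for the list. Its members Cd83 and Tnfaip2 had a smaller p than Cxcl10 and Casp4 and are not shown. Each is 300 bases long and ends shortly after the gene's start in RefSeq (GRCm38.p6), written 5′ to 3′ along the gene. Capitals mark letters that fit the kappaB motif, the sequence that NF-kB dimers bind, on either strand, with overlapping matches merged.
Ier3, chr17:35821463-35821762, plus strand: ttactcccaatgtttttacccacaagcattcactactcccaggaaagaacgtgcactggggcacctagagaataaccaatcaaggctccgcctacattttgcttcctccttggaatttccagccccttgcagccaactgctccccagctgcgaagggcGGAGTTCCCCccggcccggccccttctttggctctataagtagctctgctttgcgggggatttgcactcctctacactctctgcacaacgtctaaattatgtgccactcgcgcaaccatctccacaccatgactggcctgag
Csf1, chr3:107760420-107760719, minus strand: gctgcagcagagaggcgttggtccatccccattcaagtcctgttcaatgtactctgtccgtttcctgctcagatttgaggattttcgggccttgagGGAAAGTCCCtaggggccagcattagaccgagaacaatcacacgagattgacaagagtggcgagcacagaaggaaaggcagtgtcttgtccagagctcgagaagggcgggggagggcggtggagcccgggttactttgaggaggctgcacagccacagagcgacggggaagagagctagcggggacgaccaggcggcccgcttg
Cxcl10, chr5:92348840-92349139, minus strand: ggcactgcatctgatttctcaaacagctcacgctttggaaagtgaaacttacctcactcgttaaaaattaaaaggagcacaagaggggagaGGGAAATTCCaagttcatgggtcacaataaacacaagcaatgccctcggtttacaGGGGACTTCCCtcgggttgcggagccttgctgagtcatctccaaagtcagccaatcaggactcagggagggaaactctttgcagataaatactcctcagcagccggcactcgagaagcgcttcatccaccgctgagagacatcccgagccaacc
Casp4, chr9:5308599-5308898, plus strand: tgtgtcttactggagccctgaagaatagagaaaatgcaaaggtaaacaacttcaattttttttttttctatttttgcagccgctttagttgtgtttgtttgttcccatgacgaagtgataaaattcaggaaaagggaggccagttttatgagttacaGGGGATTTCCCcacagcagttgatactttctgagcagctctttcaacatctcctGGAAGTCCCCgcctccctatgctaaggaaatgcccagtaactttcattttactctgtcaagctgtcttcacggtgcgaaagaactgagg
Nfkbia, chr12:55492598-55492897, minus strand: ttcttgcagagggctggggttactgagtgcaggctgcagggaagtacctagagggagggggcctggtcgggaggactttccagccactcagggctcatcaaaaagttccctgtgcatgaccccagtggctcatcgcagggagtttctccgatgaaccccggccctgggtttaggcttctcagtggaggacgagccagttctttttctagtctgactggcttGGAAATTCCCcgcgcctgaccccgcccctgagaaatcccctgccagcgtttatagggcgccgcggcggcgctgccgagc
Ier3, Csf1 and Nfkbia held 1 match and Cxcl10 and Casp4 held 3. A match was present in 50% of the 38 NF-kB target genes whose promoter was in the table (of 52 tested), beside 9.55% of all 27025 genes with one. The median difference of responses was 0.25 over the 19 targets with a match and 0.27 over the 19 without. A match describes the letters only and is not a shown binding site.

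Target genes of NF-kB, like the genes that rose in general, mostly had the larger estimated response in P72. Of 52 measured members of the list, 43 rose and 4 fell in P72 and 38 rose and 3 fell in R72, with median responses of 1.37 and 0.91. The difference was positive for 43 of 52 (82.7%), with a median of 0.36, and 17 had an unadjusted p under 0.05, all of them positive. Over all genes tested 52.7% were positive, and 4.46% were positive at that p. Of the 4488 genes that rose at least 2-fold, 77.1% were positive with a median of 0.31, and 521 were positive at that p. For the NF-kB targets the median of P72 minus R72 was 0.19 at 4 h and -0.15 at 0 h. Their median difference of responses was 0.53 in replicates 1 and 3 and 0.24 in replicates 2 and 4. It was 0.15 on scan day 1 and 0.65 on scan days 2 and 3, and 0.22 with arrays centred on their median.

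Ier3, an early response gene that protects cells from apoptosis, is probed at chromosome 17, 33924245 to 33924304 (build mm7 here and below). It stood at -0.75, -0.90, -0.30 and -0.38 in P72 at 4 h and at -5.87, -5.46, -5.09 and -5.00 in P72 at 0 h, against -0.97, -1.21, -1.56 and -1.03 in R72 at 4 h and -4.82, -4.76, -4.93 and -4.74 in R72 at 0 h. P72 was the higher genotype at 4 h and the lower one at 0 h, with no overlap at either time. It rose 27.3-fold in P72 and 12.3-fold in R72, and the difference was 1.15 ± 0.25 (limma, adjusted p = 0.471). At 0 h Ier3 was well above background on 3 of 4 arrays of each genotype, and in the authors' deposited values its difference was 0.72. Csf1 (chromosome 3, 107559703 to 107559762) encodes the growth factor of macrophages. It stood at -0.70, -0.90, -0.97 and -0.79 in P72 at 4 h and at -5.08, -3.39, -3.94 and -4.38 in P72 at 0 h, against -1.34, -1.64, -1.44 and -1.58 in R72 at 4 h and -3.18, -3.71, -3.56 and -3.51 in R72 at 0 h. All P72 arrays lay above all R72 arrays at 4 h, while the 0 h arrays overlapped. Its difference of 1.36 ± 0.36 became 1.07 without P72 0 h replicate 1, the lowest array.

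Other NF-kB targets with a small unadjusted p also had the higher fold in P72. Cd83, a surface protein of activated antigen-presenting cells, rose 4.49-fold in P72 and 2.16-fold in R72, with a difference of 1.06 ± 0.28. Tnfaip2, an inflammation-induced gene, rose 6.52-fold in P72 and 3.4-fold in R72, and its difference was 1.48 in replicates 1 and 3 and 0.40 in replicates 2 and 4. Cd40, the receptor by which T cells activate antigen-presenting cells, rose 2.79-fold in P72 and 1.55-fold in R72. In contrast Nfkbia, the inhibitor that NF-kB induces to limit itself, rose 1.4-fold in P72 and 1.26-fold in R72, and the 95% interval of its difference ran from -0.14 to 0.44. Tnf, a classical target and activator of the pathway, rose 2.8-fold in P72 and 2.22-fold in R72, with an interval of -0.22 to 0.89.

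Among 44 chemokines and cytokines, 38 rose and 1 fell in P72 and 30 rose and 1 fell in R72. The difference was positive for 40, with a median of 0.64, and 14 had an unadjusted p under 0.05, all positive. Over all genes tested 52.7% were positive, and 4.46% were positive at that p. Cxcl10, a chemokine that attracts activated T cells, stood at 0.18, 0.16, 0.84 and 1.24 in P72 at 4 h and at -2.93, -1.69, -1.99 and -2.22 in P72 at 0 h, against 0.11, 0.10, -0.49 and 0.17 in R72 at 4 h and -1.19, -1.67, -1.42 and -1.82 in R72 at 0 h. The genotypes met at 4 h, where the lowest P72 array was level with the highest R72 array, and at 0 h they overlapped through 1 P72 array. The difference was 1.31 ± 0.43. Cx3cl1, a membrane-bound chemokine, rose 4.03-fold in P72 and 2.06-fold in R72. Il1b, the fever-inducing cytokine interleukin 1 beta, rose 42.8-fold in P72 and 19.3-fold in R72, with a difference of 1.15 ± 0.43 (limma, adjusted p = 0.776). The median of the list was 0.92 in replicates 1 and 3 and 0.29 in replicates 2 and 4. Without P72 0 h replicate 1 it was 0.43, on scan day 1 it was 0.34 and on scan days 2 and 3 it was 0.82.

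Inflammatory caspases, which activate interleukin 1 and lytic cell death, and their partners showed a median difference of 0.47, positive for 14 of 18 members, and 0.20 in the authors' deposited values. For this list the median of P72 minus R72 was 0.31 at 4 h and -0.24 at 0 h. Casp4 (chromosome 9, 5253886 to 5253945), the sensor of cytosolic bacterial lipid, stood at 1.26, 1.41, 1.67 and 1.68 in P72 at 4 h and at -1.81, -0.39, -0.56 and -1.11 in P72 at 0 h, against 1.17, 0.84, 0.57 and 0.75 in R72 at 4 h and -0.28, -0.73, -0.89 and -0.88 in R72 at 0 h. Every P72 array was above every R72 array at 4 h, and the untreated arrays overlapped. It rose 5.56-fold in P72 and 2.89-fold in R72, a difference of 0.95 ± 0.33 (limma, adjusted p = 0.764), or 0.66 without P72 0 h replicate 1. Casp1, the caspase that cleaves interleukin 1 beta, rose 2.05-fold in P72 and 1.39-fold in R72, with an interval of the difference from 0.03 to 1.10. Without P72 0 h replicate 1 the estimate was 0.37 and the unadjusted p was no longer under 0.05. Mefv, the gene of the sensor pyrin, rose 5.86-fold in P72 and 3.07-fold in R72. Il1r2, a decoy receptor for interleukin 1, rose 6.01-fold in P72 and 2.56-fold in R72 and had a difference of 1.23 ± 0.28. In untreated P72 thymocytes Il1r2 stood at -0.82 relative to R72 (adjusted p = 0.0487), and neutrophil markers, of which it is one, moved with it as given below.

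Receptors that feed NF-kB also had mostly positive estimates. The difference was positive for 20 of 22 Toll-like receptor and sensing genes, with a median of 0.39 and 8 at unadjusted p under 0.05, and the median was 0.21 in the authors' deposited values. Among all genes tested 52.7% were positive, and 4.46% were positive at that p. Tlr2, the receptor for bacterial lipoproteins, rose 3.36-fold in P72 and 2.28-fold in R72, Tirap, its adaptor, 2.84-fold and 2.03-fold, and Nod1, a cytosolic peptidoglycan sensor, 1.84-fold and 1.3-fold. For 22 of 28 members of the TNF superfamily it was positive, with a median of 0.33. That median was 0.21 without P72 0 h replicate 1, 0.08 on scan day 1, 0.09 in replicates 2 and 4 and 0.12 in the authors' deposited values. Fasl, the ligand of the death receptor Fas, rose 3-fold in P72 and 1.98-fold in R72. Tnfsf13b, the B cell survival factor BAFF, was at 0.66 in P72 and 0.26 in R72, where the response did not pass the test (adjusted p = 0.0552), and Tnfrsf18, the receptor GITR, rose 2.55-fold in P72 and 2.11-fold in R72. A second probe gave a smaller difference for Fasl (0.18, against 0.60) and for Tnfsf13b (0.18, against 0.40). The subunits, kinases and inhibitors of NF-kB had a median difference of 0.15, positive for 14 of 22, but 0.01 with arrays centred on their median, -0.001 on scan day 1 and 0.02 with normexp background correction. Of these the subunit Relb (0.51 ± 0.21) and the deubiquitinase Cyld (0.31 ± 0.10), which restrains the pathway, had an unadjusted p under 0.05, and the co-activator Bcl3 had 0.52 ± 0.25, just short of it. Other probes of Cyld gave 0.05 and 0.27. Relb was at 0.41 without P72 0 h replicate 1, where its unadjusted p was no longer under 0.05, and at 0.18 in replicates 2 and 4. Interferon-stimulated genes were positive for 37 of 40 with a median of 0.17, against 0.03 with arrays centred on their median. Their gap lay at 0 h: the median of P72 minus R72 was -0.02 at 4 h and -0.20 at 0 h.

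**Figure D2:**
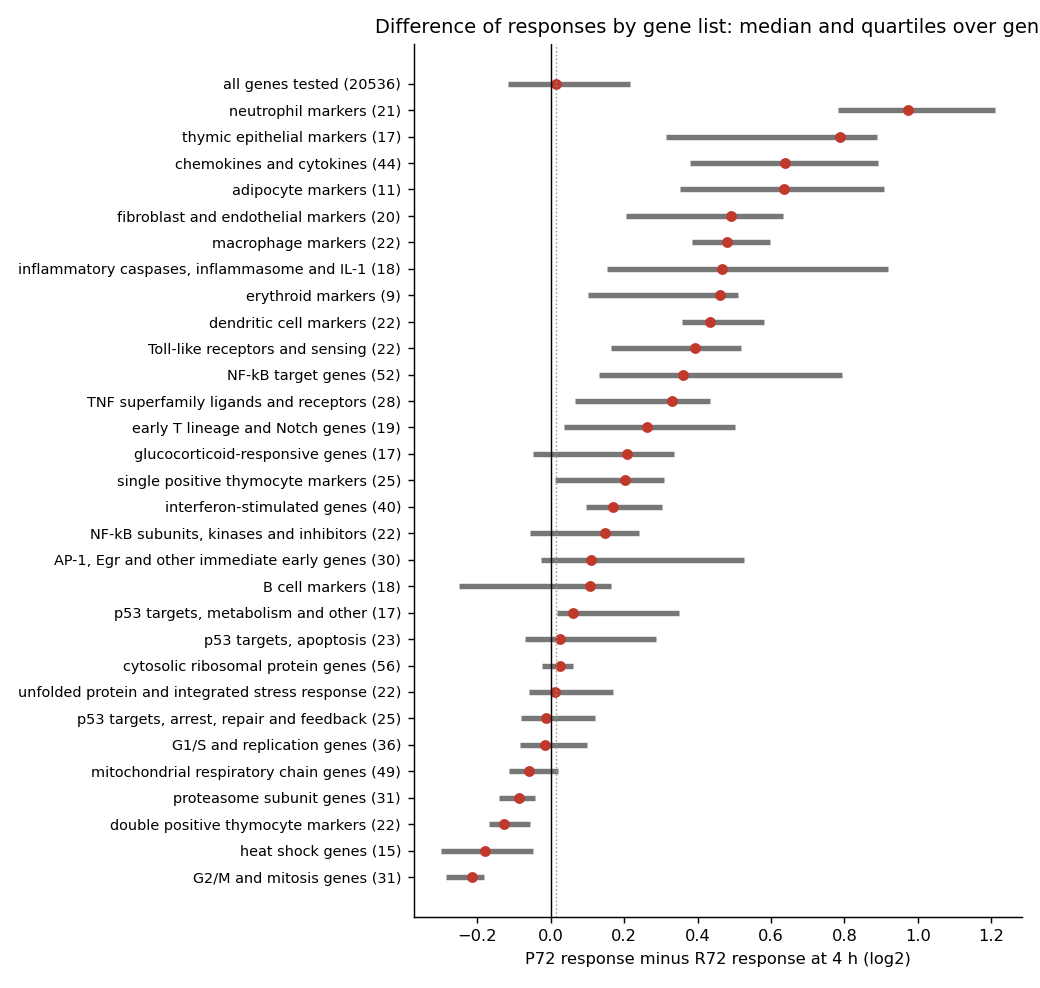
Difference of responses at 4 h by gene list: points are medians over the tested members (number in brackets), bars run between the quartiles, and the dotted line marks the median of all genes. Chemokine, inflammasome and NF-kB target lists lie to the right of 0, the 3 p53 target lists close to it (medians between -0.01 and 0.06) and the mitosis list to the left at -0.22; a list's members are not independent replicates.

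The size of these estimates depended on which arrays were compared. Of the 56 genes named in the text with a positive difference at unadjusted p under 0.05, 48 had the larger estimate in replicates 1 and 3 and 40 had the larger one on scan days 2 and 3. The same shares over all genes tested were not computed, so these counts are not a trait of the named genes. Over genes that rose, chosen anew in each fit, the median was 0.23 in replicates 1 and 3 and 0.24 in replicates 2 and 4. It was 0.16 on scan day 1 and 0.29 on scan days 2 and 3. In the authors' deposited values 22 of the 56 were over 1.5 times smaller. Without P72 0 h replicate 1, 17 of all 71 named genes at unadjusted p under 0.05 were no longer under it: Cdkn1a, Pmaip1, Casp1, Klf4, Relb, Nod1, Gadd45g, Abhd4, Hsph1, Vcam1, Ctss, Csf1r, Itgax, H2-Aa, Krt8, Krt18 and Foxn1. Of 19 lists with a median over 0.1, which share members, 16 had the larger median in replicates 1 and 3 and 18 on scan days 2 and 3. The part of Xist state and scan day in these differences was not tested.

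Among the best known p53 targets, several rose by almost the same estimate in both genotypes. Bbc3, which encodes the pro-apoptotic BH3 protein PUMA (chromosome 7, 14080459 to 14080518), stood at 6.56, 6.61, 6.64 and 6.85 in P72 at 4 h and at 3.5, 3.22, 3.22 and 3.30 in P72 at 0 h, against 6.53, 6.59, 6.31 and 6.63 in R72 at 4 h and 3.17, 3.32, 3.15 and 3.13 in R72 at 0 h. The genotypes overlapped at both times. It rose 10.2-fold in P72 and 9.98-fold in R72, and the 95% interval of the difference, -0.22 to 0.29, leaves out a ratio of responses above 1.22 or below 0.859. Ccng1, cyclin G1, a feedback target, stood at 4.03, 3.95, 4.28 and 4.34 in P72 at 4 h and between 1.83 and 1.97 in P72 at 0 h, against 4.48, 4.36, 3.84 and 4.32 in R72 at 4 h and between 1.87 and 2.04 in R72 at 0 h. Its interval ran from -0.36 to 0.30, and its difference was -0.38 on scan day 1 and 0.32 on scan days 2 and 3. Bax, the pore-forming effector of apoptosis, rose 4.59-fold in P72 and 4.9-fold in R72 (interval -0.42 to 0.23). Mdm2, the ligase that degrades p53, rose 1.54-fold in P72 and 1.59-fold in R72, the death receptor Fas 1.61-fold and 1.68-fold, and the apoptosis regulator Trp53inp1 1.29-fold and 1.41-fold. The difference of Mdm2 was -0.24 on scan day 1 and 0.14 on scan days 2 and 3, and a second Mdm2 probe gave -0.20 ± 0.14. Trp53 itself did not pass the test in either genotype (0.06 in P72 and 0.16 in R72, difference -0.10 ± 0.24). Its probe lies at chromosome 11, 69662031 to 69662089, and neither it nor the 0.12 ± 0.44 of a second probe checks the codon 72 labels.

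Other p53 targets had positive estimates. Of 23 apoptosis targets 5 had an unadjusted p under 0.05, as did 4 of 25 targets of arrest, repair and feedback and 3 of 17 of metabolism, all positive, while the median differences of the lists were 0.03, -0.01 and 0.06 (-0.11, -0.15 and -0.07 with arrays centred on their median). A positive difference at that p was held by 4.46% of all genes tested and by 819 of the 8371 genes that rose. Cdkn1a, the cyclin-dependent kinase inhibitor p21 (chromosome 17, 27293819 to 27293878), stood at 1.33, 1.599, 1.61 and 1.48 in P72 at 4 h and at -3.64, -2.43, -2.57 and -3.30 in P72 at 0 h, against 1.53, 1.35, 0.39 and 0.98 in R72 at 4 h and -2.94, -2.58, -2.46 and -2.57 in R72 at 0 h. The genotypes overlapped at both times. Its difference was 0.79 ± 0.34 (limma, adjusted p = 0.83) and 0.57 without P72 0 h replicate 1, where the unadjusted p was no longer under 0.05. It was 0.30 on scan day 1 and 1.29 on scan days 2 and 3. Pmaip1, the BH3 protein NOXA, rose 9.3-fold in P72 and 5.96-fold in R72, a difference of 0.64 ± 0.27 that was 0.17 on scan day 1 and 1.11 on scan days 2 and 3. Perp, a membrane protein of p53-dependent apoptosis, and Plk2, a stress-induced kinase, had 1.22 ± 0.38 and 1.24 ± 0.39. Plk2 was well above background on 2 of 4 P72 0 h arrays. Both were low on P72 0 h replicate 1, and their differences were 0.85 and 1.02 without it. In the authors' deposited values Plk2 was at 0.38.

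Gdf15, a stress-induced cytokine of the p53 metabolism list, was higher in P72 at 4 h, while its gap at 0 h did not pass the test. It stood at 1.77, 1.80, 1.74 and 2.45 in P72 at 4 h and at -3.16, -3.89, -3.59 and -3.67 in P72 at 0 h, against 1.26, 0.88, 0.08 and 0.54 in R72 at 4 h and -3.66, -2.96, -3.93 and -3.71 in R72 at 0 h. Every P72 array was above every R72 array at 4 h, by 1.25 on average (adjusted p = 0.0238 for P72 against R72 at 4 h), and the untreated arrays overlapped. It rose 45.9-fold in P72 and 19.1-fold in R72, and the difference of 1.26 ± 0.39 did not pass (adjusted p = 0.689). Abhd4, a lipid hydrolase of the same list, rose 4.07-fold in P72 and 3.07-fold in R72. The DNA damage genes Gadd45b and Gadd45g rose 4.18-fold and 4.7-fold in P72 and 2.77-fold and 3.51-fold in R72. Pmp22, a myelin protein of the apoptosis list, rose 3.67-fold in P72 and 2.2-fold in R72.

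Immediate early transcription factors had a median difference of 0.11, positive for 22 of 30, and -0.03 with arrays centred on their median. Jun, a subunit of AP-1, rose 5.91-fold in P72 and 3.48-fold in R72. It had a genotype difference of -0.02 at 0 h, not past the test, and higher in P72 at 4 h by 0.74 (adjusted p = 0.0361). Its difference of responses was 0.77 ± 0.25, with 0.26 on scan day 1 and 1.27 on scan days 2 and 3. Atf3, a stress-induced repressor, rose 27.8-fold in P72 and 15.6-fold in R72, and Klf4, a zinc-finger factor, 2.38-fold and 1.66-fold.

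**Figure D3:**
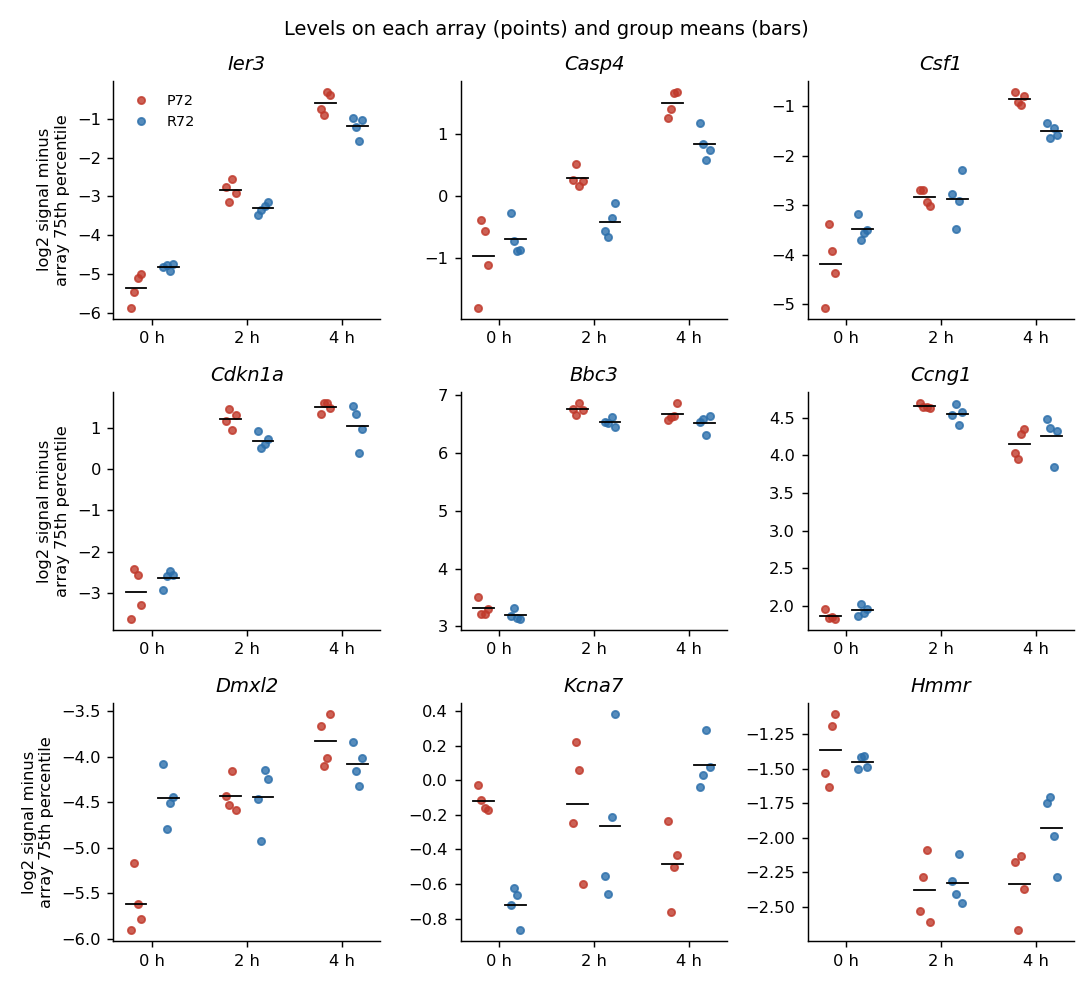
Levels of 9 genes on every P72 (red) and R72 (blue) array at 0, 2 and 4 h, with bars at the group means; the vertical axes are log2 levels as defined above and differ between genes. At 4 h all P72 arrays lie above all R72 arrays for Ier3, Casp4 and Csf1, the genotypes overlap for Bbc3, Ccng1 and Cdkn1a, and Dmxl2 differs at 0 h.

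The genes of mitosis, like the genes that fell in general, had the larger estimated fall in P72. The 31 genes of G2/M and mitosis all fell in P72 and 25 fell in R72, with median responses of -0.86 and -0.64. The difference was negative for all 31, with a median of -0.22 and a range of -0.51 to -0.04, against a median of 0.01 over all genes. Of the 4787 genes that fell on average, 75.6% had a negative difference, with a median of -0.08. For the 224 that fell at least 2-fold these values were 70.5% and -0.11. Only Hmmr had an unadjusted p under 0.05. The median was -0.43 on scan day 1 and -0.05 on scan days 2 and 3, and it was negative under every scaling. Hmmr, a spindle-associated hyaluronan receptor, stood at -2.17, -2.67, -2.13 and -2.37 in P72 at 4 h and at -1.53, -1.63, -1.19 and -1.10 in P72 at 0 h, against -1.75, -1.71, -1.98 and -2.29 in R72 at 4 h and -1.50, -1.41, -1.41 and -1.49 in R72 at 0 h. The genotypes overlapped at both times, and the difference was -0.50 ± 0.21 (limma, adjusted p = 0.83). Kif23, a kinesin of cytokinesis, had a difference of -0.51 ± 0.25, the centromere protein Cenpf -0.45 ± 0.22 and the mitotic kinase Aurka -0.32 ± 0.17.

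Replication genes of G1/S fell in both genotypes. Of 36 members 33 fell in P72 and 33 fell in R72, the median difference was -0.02 with 17 positive, or -0.15 with 6 positive when arrays were centred on their median, and none had an unadjusted p under 0.05. E2f2, an E2F transcription factor, had -0.39 ± 0.19 (limma, adjusted p = 0.892). Heat shock genes had a median difference of -0.18, which was 0.05 on scan days 2 and 3, and it was positive for 3 of 15. The chaperone Hsph1 fell to 1.76, 1.82, 1.86 and 1.76 in P72 at 4 h, against 4.56, 4.37, 4.26 and 4.25 in P72 at 0 h. In R72 it was at 3.08, 3.24, 1.87 and 2.40 at 4 h, against 3.92, 4.35, 5.00 and 4.14 at 0 h. The R72 4 h arrays of scan day 1 lay well above the others, and the difference of -0.86 ± 0.37 was -1.70 on scan day 1 and -0.01 on scan days 2 and 3. The co-chaperone Dnaja1 had -0.50 ± 0.18 and Hsp90aa1 -0.31 ± 0.17, while the small chaperone Hspb1 had 1.24 ± 0.45. Cytosolic ribosomal, mitochondrial respiratory chain and proteasome genes had medians of 0.02, -0.06 and -0.09, and of -0.11, -0.19 and -0.22 with arrays centred on their median.

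Markers of other cell types that a thymus holds moved with the inflammatory lists, and their part in those results was not tested. Macrophage markers had a positive difference for 22 of 22 members (median 0.48) and dendritic cell markers for 21 of 22 (0.43). The macrophage median was 0.67 in replicates 1 and 3 and 0.24 in replicates 2 and 4, and 0.32 without P72 0 h replicate 1. Among them Vcam1 rose 3.34-fold in P72 and 2.15-fold in R72, the integrin Itgax 3.54-fold and 2.21-fold, the antigen-presenting H2-Aa 2.86-fold and 1.84-fold, and the protease Ctss 2.02-fold and 1.43-fold. The macrophage growth factor receptor Csf1r rose 1.63-fold in P72, and its R72 response was 0.16 (adjusted p = 0.498). The log2 of the summed macrophage signals ran from 7.30 to 7.58 in P72 and from 7.04 to 7.64 in R72 at 4 h, and from 6.25 to 6.803 in P72 and from 6.72 to 7.11 in R72 at 0 h. For dendritic cells it ran from 6.63 to 6.83 in P72 and from 6.06 to 6.76 in R72 at 4 h, and from 5.48 to 5.96 in P72 and from 5.56 to 5.83 in R72 at 0 h. Every macrophage and dendritic cell marker tested was well above background on some array.

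Neutrophil markers had the largest median difference of all lists, 0.97, positive for 20 of 21, and their gap lay at 0 h. The median of P72 minus R72 was -0.04 at 4 h and -0.90 at 0 h, so the list's difference of responses came with lower levels in untreated P72. The log2 summed signal ran from 6.42 to 7.44 in P72 and from 6.36 to 7.35 in R72 at 4 h, and from 5.43 to 6.23 in P72 and from 6.33 to 6.66 in R72 at 0 h, where the genotypes did not overlap. Cxcr2, the neutrophil chemokine receptor, stood at -1.78, -2.85, -1.78 and -2.89 in P72 at 4 h and at -4.74, -4.97, -3.88 and -5.44 in P72 at 0 h, against -2.79, -2.94, -2.65 and -2.73 in R72 at 4 h and -4.43, -3.68, -3.41 and -3.01 in R72 at 0 h. P72 and R72 overlapped at both times, and the difference was 1.58 ± 0.51. Csf3r, the receptor for granulocyte colony-stimulating factor, had 1.43 ± 0.47 and the chemoattractant receptor Fpr2 had 1.21 ± 0.41. Thymic epithelial markers had most of their gap at 0 h as well, with a median difference of 0.79. Their median of P72 minus R72 was 0.10 at 4 h and -0.58 at 0 h, and medians over genes need not add up. The difference was positive for 14 of 17 members and ranged from -1.08 to 1.35. In the authors' deposited values the median was 0.37. The keratins Krt8 and Krt18 had 0.82 ± 0.32 and 0.81 ± 0.33, and Foxn1 and Aire, transcription factors of the epithelium, 1.19 ± 0.47 and 1.35 ± 0.54. The log2 summed epithelial signal ran from 6.78 to 7.87 in P72 and from 7.71 to 8.29 in R72 at 4 h, and from 7.03 to 7.61 in P72 and from 6.29 to 7.94 in R72 at 0 h. At the median of the arrays it went from 7.23 at 0 h to 7.63 at 4 h in P72 and from 7.215 to 7.88 in R72. The sum thus rose more in R72, unlike most single members. Without P72 0 h replicate 1 the epithelial median difference was 0.42, the neutrophil median difference 0.86 and the difference of Aire 0.76.

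**Figure D4:**
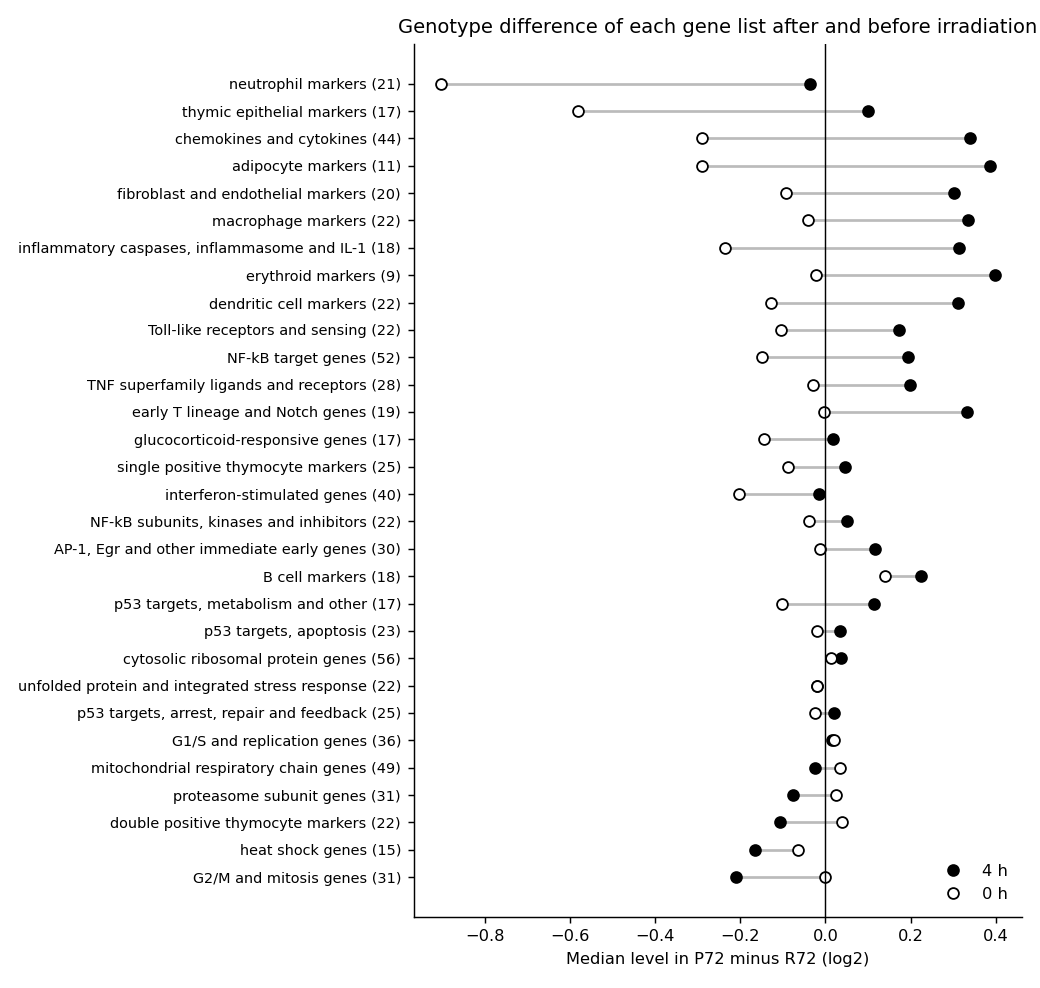
Median level in P72 minus R72 for each gene list at 4 h (filled) and 0 h (open), with the number of tested genes in brackets; the length of a grey line is about the difference of responses. Neutrophil and epithelial markers differ mainly at 0 h (-0.90 and -0.58), macrophage markers and mitosis genes mainly at 4 h (0.33 and -0.21), and chemokines at both times.

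Markers of double positive thymocytes, the main cell of the organ, had a difference that was positive for 3 of 22, with a median of -0.13. Rag2, the recombinase subunit that cuts receptor genes, was at -0.16 in P72 and 0.18 in R72, neither past the test, with a difference of -0.34 ± 0.13, and Mns1 had -0.67 ± 0.25. Single positive markers had a median of 0.20, positive for 21 of 25, or 0.07 with 13 positive when arrays were centred on their median. B cell markers had 0.11, positive for 10 of 18, and the sign turned in replicates 2 and 4 (-0.29) and with the slide as a fixed block (-0.23). Early T lineage genes had 0.26, glucocorticoid-responsive genes 0.21, fibroblast and endothelial markers 0.49, erythroid markers 0.46, adipocyte markers 0.64 and genes of the unfolded protein response 0.01. With arrays centred on their median the B cell and unfolded protein medians were -0.03 and -0.12. On scan day 1 the adipocyte median was -0.24 and the glucocorticoid one -0.03, against 1.09 and 0.28 on scan days 2 and 3. In the authors' deposited values the erythroid median was 0.10 and the fibroblast and endothelial one 0.17. At the median of the arrays the log2 summed fibroblast and endothelial signal went from 7.85 at 0 h to 7.45 at 4 h in P72. In R72 it went from 7.69 to 7.595. That sum thus fell more in P72, unlike most single members, and 3 members were not well above background on any P72 0 h array. All 22 double positive markers were well above background in every group, and their log2 summed signal ran from 10.52 to 10.63 in P72 and from 10.60 to 10.70 in R72 at 4 h, and from 10.51 to 10.73 in P72 and from 10.50 to 10.67 in R72 at 0 h.

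For the genes with the smallest p, none of which passed the threshold, only those well above background on at least 1 array of each of the 4 groups were named, and names that are only accessions, clone or probe identifiers were passed over. Of the 10 so chosen with a positive difference, Ier3 and Il1r2 are described above, and the others were Dmxl2, Wfikkn2, Wwc1, Zfp202, F2, Tctn3, Hdc and Cables1. Dmxl2, a regulator of vesicle acidification, stood at -3.66, -4.10, -4.01 and -3.53 in P72 at 4 h and at -5.91, -5.17, -5.62 and -5.79 in P72 at 0 h, against -3.84, -4.16, -4.32 and -4.02 in R72 at 4 h and -4.08, -4.79, -4.51 and -4.44 in R72 at 0 h. The genotypes overlapped at 4 h and were apart at 0 h, where Dmxl2 was well above background on 1 of 4 P72 arrays. Its difference, 1.43 ± 0.27, came with a gap at 0 h of -1.17 (adjusted p = 0.00316) and of 0.26 at 4 h. Wwc1, a regulator of the Hippo pathway, was likewise well above background on 1 of 4 P72 arrays at 0 h, with a gap of -1.23 at 0 h and 0.08 at 4 h. Wfikkn2, a secreted protease inhibitor, had -1.05 at 0 h and 0.40 at 4 h, and its 2 other probes gave smaller differences of 0.29 and 0.75, against 1.45. In the authors' deposited values these dim genes had smaller differences: 0.34 for Dmxl2, 0.31 for Wwc1, 0.39 for Wfikkn2 and 0.18 for Zfp202.

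In F2, the prothrombin gene, the gap lay at 4 h. It stood at -2.65, -2.62, -2.53 and -2.30 in P72 at 4 h and at -3.14, -3.19, -2.74 and -2.94 in P72 at 0 h, against -3.69, -3.21, -3.16 and -3.39 in R72 at 4 h and -3.29, -3.04, -3.00 and -3.12 in R72 at 0 h. All P72 arrays were above all R72 arrays at 4 h, and the untreated arrays overlapped. F2 rose by 0.48 in P72 and was at -0.25 in R72 (adjusted p = 0.105), a difference of 0.73 ± 0.17. Hdc, the enzyme that makes histamine, rose 8.15-fold in P72 and 3.36-fold in R72. Cables1, which binds cyclin-dependent kinases, rose 10.8-fold in P72 and 5.44-fold in R72. The zinc-finger gene Zfp202 and the ciliary gene Tctn3 rose 1.88-fold and 1.43-fold in P72 and were at 0.03 and 0.02 on the log2 scale in R72. The smallest p of all genes, outside that choice, belonged to Wfdc12 (adjusted p = 0.335), which was well above background on 3 of 16 arrays, so no fold is given. Both it and the next gene were singled out after their values were seen. 9030617O03Rik rose 57.5-fold in P72 and 29.3-fold in R72, with a gap of -0.14 at 4 h and of -1.11 at 0 h.

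Chosen in the same way, the 10 genes with a negative difference were Kcna7, Fubp1, Ankrd6, Mis12, Rragd, Hdac1, Nfya, Tra2b, Cmya5 and Terf2ip. Kcna7, a potassium channel gene (chromosome 7, 41586892 to 41586956), stood at -0.24, -0.76, -0.50 and -0.43 in P72 at 4 h and at -0.03, -0.12, -0.16 and -0.17 in P72 at 0 h, against -0.04, 0.03, 0.29 and 0.08 in R72 at 4 h and -0.72, -0.62, -0.67 and -0.87 in R72 at 0 h. The genotypes changed places: P72 was the lower one at 4 h and the higher one at 0 h, with no overlap at either time. It rose 1.75-fold in R72 and was at -0.36 in P72 (adjusted p = 0.103). The difference was -1.17 ± 0.26 (limma, adjusted p = 0.497), and it passed in a fit of the 16 arrays alone (adjusted p = 0.0365).

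Hdac1, a histone deacetylase (chromosome 4, 128960910 to 128960981), stood at 3.23, 3.25, 3.38 and 3.37 in P72 at 4 h and at 4.29, 4.30, 3.86 and 4.50 in P72 at 0 h, against 4.57, 4.24, 4.45 and 4.46 in R72 at 4 h and 4.74, 4.54, 4.46 and 4.62 in R72 at 0 h. P72 was below R72 on every array at 4 h, and its untreated arrays overlapped with those of R72. It fell by 0.93 on the log2 scale in P72 and was at -0.16 in R72 (adjusted p = 0.417), and the gap at 4 h was -1.12 (adjusted p = 0.000599). Nfya, a subunit of the CCAAT-binding factor NF-Y, had the same form: 1.67, 1.35, 1.40 and 1.41 in P72 at 4 h and 2.09, 2.10, 1.92 and 1.92 in P72 at 0 h, against 1.83, 2.31, 1.79 and 2.01 in R72 at 4 h and 1.92, 2.11, 2.13 and 1.96 in R72 at 0 h. Only the P72 4 h arrays were low at this probe. A second Nfya probe gave a difference of -0.17, against -0.51 at the one used. Fubp1, a single-strand DNA-binding regulator of Myc, fell by 1.25 in P72 and by 0.61 in R72, and the splicing factor Tra2b by 0.94 and by 0.55. Mis12 of the kinetochore fell by 0.87 in P72 and by 0.35 in R72, Rragd, a GTPase of nutrient sensing, by 1.24 and by 0.65, and the telomere protein Terf2ip by 0.58 and by 0.21. Ankrd6 fell by 1.26 in P72 and by 0.65 in R72, and Cmya5 by 1.08 and by 0.40. By probe, with the one used first, Fubp1 had differences of -0.64, -0.28 and -0.32 and Rragd -0.59, -0.21 and -0.71. Terf2ip had -0.36, -0.045 and -0.36, Ankrd6 -0.62 and -0.82, and Cmya5 -0.68 and -0.76.

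**Figure D5:**
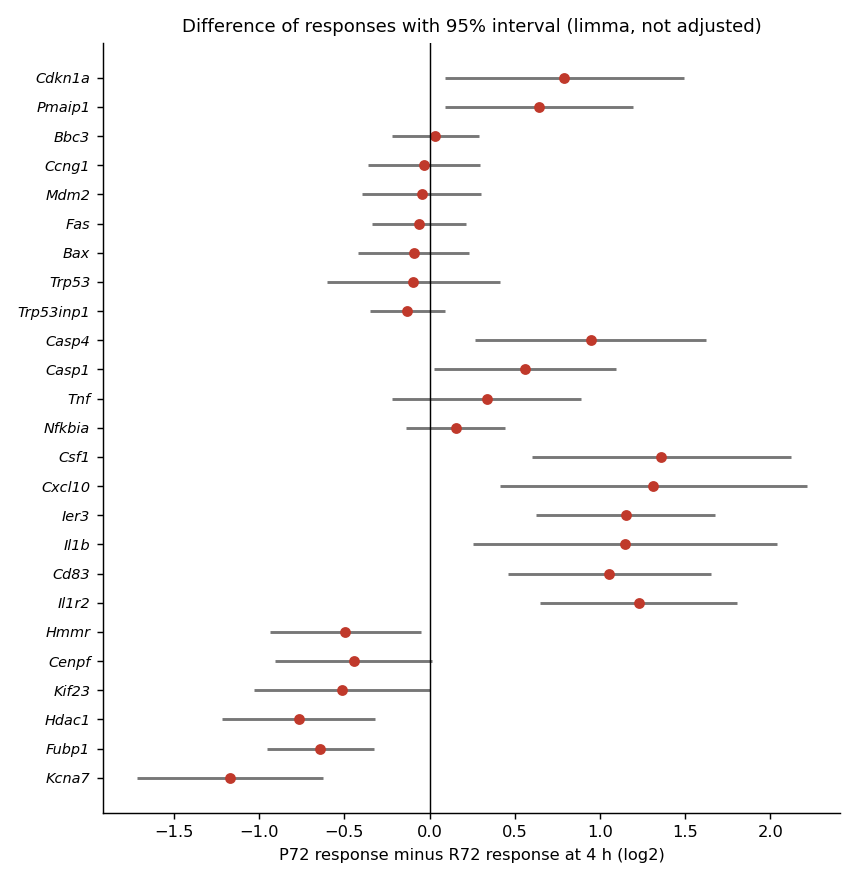
Difference of responses at 4 h (points, log2, P72 minus R72) with its unadjusted 95% interval for 25 genes, from p53 targets at the top through inflammatory genes to falling genes. Intervals of Bbc3, Ccng1, Mdm2, Fas and Bax cross 0 close to it, those of Casp4, Csf1 and Ier3 lie above 0 and those of Hdac1, Fubp1 and Kcna7 below.

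At 2 h, which shares the 0 h arrays with the 4 h comparison, 1 gene had a difference of responses past the threshold (0.00487% called). This was Thyn1, a nuclear protein of thymocytes, at 1.65 ± 0.25 (adjusted p = 0.0443), beside 0.91 ± 0.25 at 4 h, and it was singled out after its values were seen. Ier3 had 1.01 at 2 h and 1.15 at 4 h, Casp4 1.00 and 0.95, Cdkn1a 0.88 and 0.79, and Bbc3 0.11 and 0.03. F2 had -0.21 at 2 h and 0.73 at 4 h, and Nfya -0.04 and -0.51. The NF-kB targets had medians of 0.21 at 2 h and 0.36 at 4 h, the mitosis genes -0.10 and -0.22. Of single comparisons of P72 with R72, 186 genes (0.906%) differed at 0 h and 261 (1.27%) at 4 h. Asns, asparagine synthetase, was lower in P72 at both times, at -2.03 relative to R72 at 4 h and -2.85 at 0 h, both past the threshold. Its response was 0.63 in P72 and -0.19 in R72.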

How the data were processed

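RNA of pooled thymocytes was measured on 32 single-colour Agilent arrays. Per the file headers, the deposited scanner intensity is a processed signal from Agilent Feature Extraction 9.5.3.1 (9.5.3 per the submitters' processing notes), background-subtracted with spatial detrending and not scaled between arrays. The authors' deposited value table holds log2 values by a method not given in the sources used here, and it served only as an alternative.

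Control spots and outlier-flagged spots were left out, spots of a probe averaged, and log2 signal centred on each array's 75th percentile. Probes well above background on at least 4 arrays were kept, with the brightest probe per gene. Names were updated by accession to RefSeq (GRCm38.p6). limma 3.58.1 in R 4.3.3 (lmFit and eBayes) was fitted to 24 P72 and R72 arrays in 6 groups, the 2 h arrays entering only the spread and the 2 h values, with Benjamini-Hochberg adjustment at 0.05. The fit was tested on simulated data. Figures used matplotlib 3.10.9.

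The comparison, the 31 gene lists and the genes always named were chosen with earlier results of these data known. Beyond those genes, the text names the 10 genes with the smallest p in each direction (with at least 1 array well above background in each of the 4 groups, leaving out names that are only accessions, clone or probe identifiers) and up to 4 with the smallest p in a list. Alternatives changed the scaling, background correction, probe filter and choice, slide or scan day, array weights and the arrays included.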

Additional observations from a re-analysis of the deposited data

Results flagged for a closer look

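Kcna7 was lower at 4 h than at 0 h on all P72 arrays and higher at 4 h than at 0 h on all R72 arrays, and its difference of responses of -1.172 did not pass the adjusted test (limma, adjusted p = 0.497).

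A single array stood apart from the other 3 of its group in 19 of 352 groups looked at (5.4%), where chance gives about 1 in 20. At 4 h in P72 these were Wfikkn2 on replicate 2 (-3.37), Cmya5 on replicate 2 (-4.24), Tnfaip2 on replicate 2 (-0.29), Perp on replicate 4 (0.91), Gdf15 on replicate 4 (2.45), Csf1r on replicate 3 (-0.68) and H2-Aa on replicate 4 (1.47). At 0 h in P72 they were Cyld on replicate 1 (0.62), Mns1 on replicate 3 (5.91) and the median of genes that rose at least 2-fold on replicate 1 (-1.11). At 4 h in R72 they were Fas on replicate 4 (5.01), Tra2b on replicate 2 (3.30), Cxcl10 on replicate 3 (-0.49), Plk2 on replicate 3 (-1.23) and Itgax on replicate 1 (0.72). At 0 h in R72 they were Zfp202 on replicate 3 (-4.77), Cyld on replicate 2 (0.44), Tnfrsf18 on replicate 2 (3.84) and the median of genes that fell at least 2-fold on replicate 1 (0.43).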

How the results depend on the processing

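No gene passed the adjusted threshold in 33 of 35 alternatives. Kcna7 passed in the fit of the 16 arrays alone and Wfdc12 without R72 4 h replicate 2, so leaving out single arrays gave 0 to 1 genes. Genes at an unadjusted p under 0.05 ranged from 408 (replicates 2 and 4) to 1702 (scan days 2 and 3), and from 742 without P72 0 h replicate 1 to 1573 without P72 0 h replicate 2. The labels do not tie arrays of one replicate number together, although these share their Xist level and, for numbers 1 and 2, the scan day. Deviations of same-numbered arrays had correlations of -0.087 to 0.536 over 16 pairs of different genotype (7 over 0.1) and of 0.07 to 0.257 over 8 pairs of the same genotype (7 over 0.1), and the numbers were not taken as pairs. With the replicate block 0 genes were called, 1385 had an unadjusted p under 0.05 and the smallest adjusted p = 0.0558, and with the block within genotype these were 0, 1646 and 0.0842 (limma).

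Over genes that rose, the median difference was 0.474 with normexp background correction, which moved the median of all genes to 0.23, and 0.09 to 0.474 over all alternatives other than leaving out an array, which gave 0.139 to 0.301. Over genes that fell it was -0.203 with normexp, -0.181 with arrays centred on their median, -0.132 on scan day 1, -0.036 on scan days 2 and 3 (chosen after seeing the data), -0.125 in replicates 1 and 3, and -0.097 to -0.055 leaving out single arrays. The genes that rose or fell were chosen anew in each alternative, so these medians are not over the same genes. With normexp 2792 genes rose, against 8371 in the main fit. With arrays centred on their median 11673 fell, against 4787. The cause of the shifts was not tested.

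Of 86 named genes, 78 kept their sign in every alternative. Of the named genes 71 had an unadjusted p under 0.05 in the main fit, and the alternatives reused its arrays. Their sign was therefore likely to hold, and the count of 78 does not show that the differences are real. Apart from Cmya5, the genes that changed sign were among those always named, which were not picked by p. Trp53 was at 0.011 with the mean of probes, 0.056 in replicates 2 and 4 and -0.163 to 0.034 leaving out single arrays. Mdm2 was at 0.144 on scan days 2 and 3 and at -0.094 to 0.010 leaving out arrays. Bbc3 was at -0.093 with normexp, -0.102 with the array median, -0.085 on scan day 1, -0.017 in replicates 1 and 3 and -0.034 to 0.097 leaving out arrays. Bax was at 0.019 in replicates 2 and 4, and Fas at -0.098 to 0.014 leaving out arrays. Ccng1 was at 0.047 and 0.001 with the slide as a fixed and a random block, 0.323 on scan days 2 and 3, 0.054 with array weights and -0.167 to 0.046 leaving out arrays. On scan day 1 Ccng1 was at -0.383 and Mdm2 at -0.238. Nfkbia was at -0.002 with normexp and -0.072 on scan day 1, and Cmya5 at 0.361 with normexp. Normexp with a capped background could not be fitted, as 8 of 24 arrays gave values that are not finite. Probes near background limit what the lowest genes can show.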
